A study of Mus musculus with 15 samples.

Results

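Follistatin, activin and BMP signalling was examined in the aorta of mice that had received angiotensin II (AngII), a vasoconstrictor peptide that raises blood pressure, or vehicle. The genes were Fst, Fstl1, Fstl3, Bmper and Grem1, which encode secreted binding proteins, Inhba and Bmp4, which encode ligands, the receptor gene Bmpr2, and the BMP target genes Id1 and Id3. They were chosen by name, with earlier results of these data known. Each was represented by the probe set that carries its symbol alone and has the highest mean signal over all arrays. Of these 10 genes 9 were measured, out of 12848 gene symbols with a probe set of their own, and Grem1 was not measured here. The AngII group was C57BL6 mice given AngII at 1 µg/kg/min by osmotic mini-pump for 3 weeks, and the vehicle group was mice of the same strain given physiological saline by the same route. Pumps were implanted at 2 months of age in both groups. The whole aorta, down to the iliac bifurcation, was cleaned of fat by dissection, but adipocyte genes still varied widely between arrays (below). Its RNA was hybridized to Affymetrix arrays, 1 array per mouse, with 8 AngII and 7 vehicle arrays. Signals are log2 values after robust multiarray analysis (RMA), so that a difference of 1 is a doubling. The array medians lay between 7.16 and 7.28, and r was 0.925 to 0.985 for any pair of arrays.
Activins and bone morphogenetic proteins (BMPs) are secreted dimers of the TGF-β family. They bring together type I and type II receptor kinases, which phosphorylate SMAD proteins that enter the nucleus and act on transcription. Signalling is set in large part outside the cell, where follistatins trap activins and proteins such as BMPER and gremlin bind BMPs. In the vessel wall BMP signalling is best known from the endothelium and from smooth muscle, and inherited loss of BMPR2 causes pulmonary arterial hypertension in humans.

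Follistatin mRNA was 2.36-fold higher in the AngII aorta and Bmper mRNA was 1.63-fold higher, while no ligand, receptor or target gene on the list passed the test. Hence 2 of the 9 measured genes were higher and 0 were lower by limma, a linear model with moderated variances (adjusted p under 0.05). Over all 15095 probe sets 2.42% were higher and 2.91% were lower by the same rule. At an unadjusted p under 0.05 the counts of the 9 were the same, 2 higher and 0 lower, against 9.29% higher and 12.6% lower over all probe sets. Significance analysis of microarrays (SAM) also called 2 higher and 0 lower, against 5.35% higher and 6.76% lower over all probe sets. The median log2 fold change of the 9 genes was 0.02, against -0.01 for all probe sets. Because the genes were chosen with earlier results known, these counts describe the list and do not test it. The aorta was measured as bulk tissue, so that more cells of a type and more RNA per cell cannot be told apart.

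**Figure D1:**
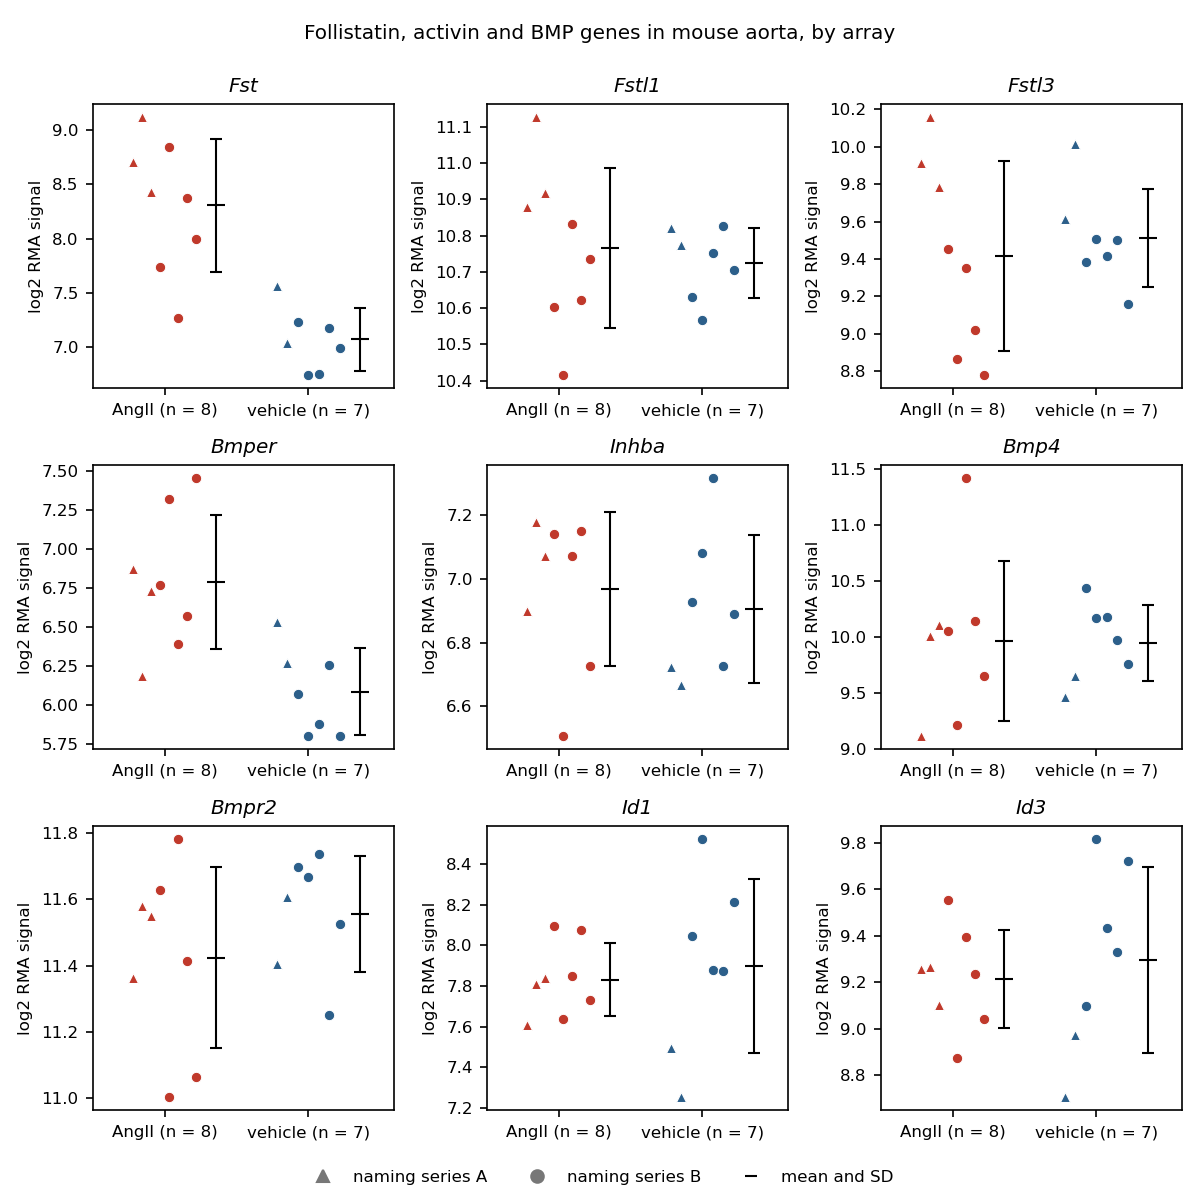
Log2 RMA signal of each measured gene (vertical axes, scaled separately) in every AngII (red, left) and vehicle (blue, right) array, with the group mean and SD in black. Triangles and circles mark naming series A and B. Fst separates the groups except for 1 AngII array at 7.27, 6 of 8 AngII arrays lie above every vehicle array for Bmper, and the groups overlap for the other genes.

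Fst encodes follistatin, which binds activin almost irreversibly and also binds myostatin and some BMPs. Its signal (probe set 17296344) was 8.71, 9.12, 8.43, 7.74, 8.84, 7.27, 8.37 and 7.99 in AngII arrays 1 to 8. It was 7.56, 7.04, 7.24, 6.74, 6.75, 7.18 and 6.99 in vehicle arrays 1 to 7. All AngII arrays but AngII 6 were above every vehicle array, and AngII 6 was below vehicle 1 only. The spread was also wider among the AngII arrays, at 8.31 ± 0.612 (SD, n = 8), against 7.07 ± 0.287 (SD, n = 7) in vehicle arrays. The log2 fold change was 1.24 (standard error 0.228, 95% interval 0.75 to 1.72, adjusted p = 0.0085 from limma). An exact permutation test over the arrays, two-sided, gave p = 0.000777, and the smallest p that this design allows is 0.000155.
By their submitted names the samples form 2 series, between which 461 probe sets differed. Series A holds 3 AngII and 2 vehicle arrays and series B 5 of each. Fst was higher in both, by 1.45 in series A (adjusted p = 0.201 from limma) and by 1.06 in series B (adjusted p = 0.047 from limma). The difference between these changes was -0.39 and did not pass the test (adjusted p = 0.837 from limma). Fst also remained called when any single array was left out, with log2 fold changes from 1.12 to 1.39.

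Bmper encodes a secreted protein with chordin-like domains that binds BMPs, among them BMP4, and is known from endothelial cells. Its signal (probe set 17515478) was lower than that of most probe sets, at 6.87, 6.19, 6.73, 6.77, 7.32, 6.39, 6.57 and 7.45 in AngII arrays 1 to 8. In vehicle arrays 1 to 7 it was 6.53, 6.27, 6.07, 5.80, 5.87, 6.26 and 5.80. AngII 8 and AngII 5 were highest, and AngII 2 and AngII 6 fell within the vehicle range. The group levels were 6.79 ± 0.432 (SD, n = 8) in AngII arrays and 6.08 ± 0.281 (SD, n = 7) in vehicle arrays. The log2 fold change was 0.70 (standard error 0.174, 95% interval 0.33 to 1.07, adjusted p = 0.0283 from limma), and the exact permutation test, two-sided, gave p = 0.00326.
Bmper differed by 0.94 in series B (adjusted p = 0.0384 from limma) and by 0.20 in series A (adjusted p = 0.786 from limma). These changes were not shown to differ between the series (difference 0.75, adjusted p = 0.729 from limma). The call of Bmper was lost without AngII 5, vehicle 4, vehicle 5 or vehicle 7, with adjusted p from 0.0544 to 0.069 and log2 fold changes from 0.63 to 0.67.

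The marker means of some cell types also differed between the groups. Of 10 macrophage genes 6 were higher, among them Cd68, which encodes a lysosomal glycoprotein, by 0.73 and the complement gene C1qa by 0.62 (adjusted p = 0.0219 and 0.0129 from limma). Adgre1, Csf1r, Mrc1 and Cd163 differed by 0.52, 0.33, 0.30 and -0.01 (none called). The mean of the 10 was 8.64 ± 0.305 in AngII arrays (range 8.30 to 9.21, SD, n = 8) and 8.03 ± 0.276 in vehicle arrays (range 7.60 to 8.41, SD, n = 7; exact permutation test, p = 0.000932). Of 7 measured fibroblast genes only Lum, the matrix proteoglycan lumican, was called, at 1.02 (adjusted p = 0.00164 from limma). Col1a1, Col1a2 and Dcn differed by 0.50, 0.31 and 0.16, and Pdgfra, Pi16 and Cd34 by 0.07, 0.07 and -0.02 (none called). The mean of the 7 was 11.2 ± 0.141 in AngII arrays (range 11.0 to 11.47, SD, n = 8) and 10.9 ± 0.136 in vehicle arrays (range 10.69 to 11.07, SD, n = 7; exact permutation test, p = 0.000932). None of 6 smooth muscle genes was called (limma, adjusted), but their mean was lower, at 12.3 ± 0.201 in AngII arrays and 12.5 ± 0.151 in vehicle arrays (SD, n = 8 and 7, exact permutation test, p = 0.0367). AngII 8, the array with the highest Bmper signal, had the highest macrophage mean, and AngII 5, the next for Bmper, had the highest fibroblast mean.
With the macrophage mean as a covariate the log2 fold change was 1.13 for Fst (adjusted p = 0.393 from limma) and 0.14 for Bmper (adjusted p = 0.917 from limma). With the fibroblast mean it was 0.93 for Fst (adjusted p = 0.475 from limma) and 0.14 for Bmper (adjusted p = 0.89 from limma). With the smooth muscle mean it was 1.14 for Fst (adjusted p = 0.0683 from limma) and 0.35 for Bmper (adjusted p = 0.272 from limma). These 3 covariates were chosen after seeing the data and differ between the groups themselves, and with the macrophage or the fibroblast mean 1 probe set of 15095 was called. The means of 8 endothelial and of 8 measured adipocyte genes did not pass the test between groups (exact permutation tests, p = 0.799 and p = 0.248). The adipocyte mean varied widely, from 7.81 to 10.05 in AngII arrays and from 7.39 to 10.11 in vehicle arrays. With the endothelial mean as a covariate Fst and Bmper remained called, at 1.28 and 0.70 (adjusted p = 0.00244 and 0.0322 from limma). With the adipocyte mean they also remained called, at 1.08 and 0.55 (adjusted p = 0.0137 and 0.0448 from limma). The heart muscle genes Actc1 and Tnnt2 averaged 9.76 in AngII 1 and 10.68 in vehicle 1, against 6.59 to 7.76 in the other 13 arrays. Without these arrays Fst changed by 1.26 (adjusted p = 0.0132 from limma) and Bmper by 0.76 (adjusted p = 0.0296 from limma). None of 7 T and B lymphocyte genes was measured here, and their part in these results was not tested.

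Fstl1 and Fstl3 encode relatives of follistatin. FSTL3 binds activin much as follistatin does, while FSTL1 is an abundant glycoprotein of mesenchymal cells that binds BMP4. The Fstl1 signal had a lowest, median and highest value of 10.41, 10.78 and 11.13 in AngII arrays and 10.57, 10.75 and 10.83 in vehicle arrays. The Fstl1 difference was 0.04, with an interval of -9.58% to 17.2% (adjusted p = 0.821 from limma). Fstl3 had a lowest, median and highest value of 8.78, 9.40 and 10.16 in AngII arrays and 9.16, 9.50 and 10.01 in vehicle arrays. The AngII values of Fstl3 reached past the vehicle values on both sides, with 1 above and 3 below all of them. Its difference was -0.10, with an interval of -29.7% to 24.1% (adjusted p = 0.806 from limma). Fstl3 was lower in naming series B than in series A by 0.67 on the log2 scale (adjusted p = 0.00889 from limma), and it alone among the 9 genes passed the test for the series. Within the series Fstl3 changed by 0.14 in A and by -0.30 in B, neither past the threshold (adjusted p = 0.806 and 0.224 from limma).

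Neither ligand gene differed between the groups at the threshold. Inhba encodes the βA subunit of activin A, the main target of follistatin. Its mean signal stood at percentile 41.8 of all probe sets. The lowest, median and highest values were 6.50, 7.07 and 7.18 in AngII arrays and 6.67, 6.89 and 7.32 in vehicle arrays. The Inhba difference was 0.06, with an interval of -11.7% to 23.8% (adjusted p = 0.786 from limma). Bmp4, a ligand made by endothelial and mesenchymal cells, varied widely, with a lowest, median and highest value of 9.11, 10.03 and 11.42 in AngII arrays. In vehicle arrays these were 9.46, 9.97 and 10.44. AngII 6 had the highest Bmp4 signal of all arrays, and AngII 1 the lowest. The Bmp4 difference was 0.02, with a wide interval of -31.5% to 49.7% (adjusted p = 0.98 from limma).

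The receptor and target genes on the list also failed to pass the test. Bmpr2, the type II BMP receptor, had a lowest, median and highest signal of 11.00, 11.48 and 11.78 in AngII arrays and 11.25, 11.61 and 11.74 in vehicle arrays. The Bmpr2 difference was -0.13, with an interval of -22.8% to 7.72% (adjusted p = 0.528 from limma). Another probe set, shared by Bmpr2 and the predicted gene Gm20272, differed by -0.07 (adjusted p = 0.785 from limma).
Id1 and Id3 encode helix-loop-helix proteins that block the DNA binding of other transcription factors, and both are direct targets of BMP-activated SMADs. The Id1 signal had a lowest, median and highest value of 7.61, 7.83 and 8.09 in AngII arrays and 7.25, 7.88 and 8.53 in vehicle arrays. The Id3 signal had a lowest, median and highest value of 8.87, 9.24 and 9.55 in AngII arrays and 8.70, 9.33 and 9.82 in vehicle arrays. Every AngII array fell inside the vehicle range for both genes. The differences were -0.07 for Id1, with an interval of -23.5% to 19.3%, and -0.08 for Id3, with an interval of -24.0% to 17.5% (adjusted p = 0.836 and 0.789 from limma). Both genes pointed upwards in series A (0.38 for Id1 and 0.37 for Id3) and downwards in series B (-0.23 and -0.26), but neither passed the test in either series, and the differences between series did not pass it (adjusted p = 0.729 for each from limma).

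Besides the genes above, 77 other genes of the pathway were listed by role, and 50 were measured. Of these, 0 were higher and 1 was lower at the threshold (limma), while 3 were higher and 9 lower at an unadjusted p under 0.05, and SAM called 0 higher and 6 lower. Over all probe sets 2.42% were higher and 2.91% lower at the threshold (limma). The shares were 9.29% and 12.6% at the unadjusted p and 5.35% and 6.76% with SAM, higher and lower. The median log2 fold change of the 50 genes was -0.05. The lower gene was Bmpr1a, a type I BMP receptor (probe set 17305042). Its signal was 9.15, 9.38, 9.27, 9.32, 8.83, 9.70, 9.19 and 9.04 in AngII arrays 1 to 8. In vehicle arrays 1 to 7 it was 9.35, 9.69, 9.67, 9.78, 9.81, 9.65 and 9.85. Thus 6 of 8 AngII arrays were below every vehicle array, while AngII 2 and AngII 6 lay within the vehicle range. Bmpr1a averaged 9.23 ± 0.256 in AngII arrays (SD, n = 8) and 9.68 ± 0.165 in vehicle arrays (SD, n = 7), which is -0.45 with a standard error of 0.107 on the log2 scale (limma, adjusted p = 0.0249). The exact permutation test gave p = 0.00249 for it.
The call of Bmpr1a was lost without vehicle 2, 4, 5 or 7 (adjusted p from 0.0509 to 0.0594), where it still differed by -0.45 to -0.42, and within each series, at -0.25 in A and -0.54 in B (adjusted p = 0.591 and 0.0607 from limma). It was -0.19 with the macrophage mean as a covariate, -0.13 with the fibroblast mean and -0.25 with the smooth muscle mean (adjusted p = 0.818, 0.853 and 0.24 from limma).

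The promoters of Bmper and Bmpr1a are shown because they belong to called genes of opposite direction, and the RefSeq promoter table (GRCm38.p6) holds both. Each sequence is the 250 bases before the transcription start that the table gives, 5′ to 3′ on the coding strand. Capitals mark GGCGCC, a palindromic motif bound by BMP-activated SMADs. For Bmper the stretch is chr9:23222826-23223075 on the plus strand, and for Bmpr1a it is chr14:34502547-34502796 on the minus strand, where the table's start is not at a bound of the annotated gene.
Bmper: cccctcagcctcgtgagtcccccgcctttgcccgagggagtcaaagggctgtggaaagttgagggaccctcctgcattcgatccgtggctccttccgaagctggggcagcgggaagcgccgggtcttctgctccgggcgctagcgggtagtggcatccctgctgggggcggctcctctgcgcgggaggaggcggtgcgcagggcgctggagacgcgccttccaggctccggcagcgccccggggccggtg
Bmpr1a: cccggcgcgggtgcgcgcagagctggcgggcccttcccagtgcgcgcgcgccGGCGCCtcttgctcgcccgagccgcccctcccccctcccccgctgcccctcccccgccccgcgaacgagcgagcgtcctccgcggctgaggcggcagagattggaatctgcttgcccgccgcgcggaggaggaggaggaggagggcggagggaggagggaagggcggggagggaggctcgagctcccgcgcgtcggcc
Both were rich in G and C, at 71.6% for Bmper and 78.8% for Bmpr1a. GGCGCC stood once in the Bmpr1a stretch and was not among the letters of the Bmper stretch. It stood in 9.59% of all 32851 stretches of the same length, and among the other genes on the list it stood once for Bmpr2 and for Grem1. Fst and Id1 were not searched here. CAGACA, the letters of the SMAD3-binding CAGA box, searched on both strands, stood once for Fstl3, in neither stretch above, and in 17.1% of all stretches. The motifs do not overlap each other in these stretches, and a match describes the letters only.

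The other receptors and SMADs included further genes that were close to the threshold. Among 10 measured receptors and co-receptors the lowest log2 fold change was that of Bmpr1b, another type I BMP receptor, at -0.55 (adjusted p = 0.0579 from limma). Among 10 SMADs and SMAD ubiquitin ligases it was that of Smad9, at -0.39 (adjusted p = 0.0806 from limma), while the SMAD genes Smad1 and Smad5 differed by 0.07 and -0.10 (adjusted p = 0.626 and 0.429). Of 8 measured BMP ligands Bmp3, which opposes other BMPs, was farthest from 0 at -0.60 (adjusted p = 0.0752 from limma). SAM called Bmpr1b, Smad9 and Bmp3 lower in addition to Bmpr1a, and likewise Wfikkn2, an inhibitor of myostatin, and the co-receptor gene Rgmb. Wfikkn2 differed by -0.23 and Rgmb by -0.15. The mean signal of Wfikkn2, 5.69, was near the lowest mean of any probe set, 5.40.
In the remaining roles the genes with the largest differences were Gdf10 at 0.21 among 4 measured activin and GDF ligands (adjusted p = 0.454), Sost at -0.30 among 13 secreted inhibitors and modulators (adjusted p = 0.172) and Atoh8 at -0.33 among 5 further BMP targets (adjusted p = 0.213, all from limma). Sost, which encodes sclerostin, passed the test in series B alone, at -0.54 (adjusted p = 0.0353 from limma). In series A it was at 0.16 (adjusted p = 0.791 from limma), and the difference between the series, -0.69, did not pass the test (adjusted p = 0.729 from limma).

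**Figure D2:**
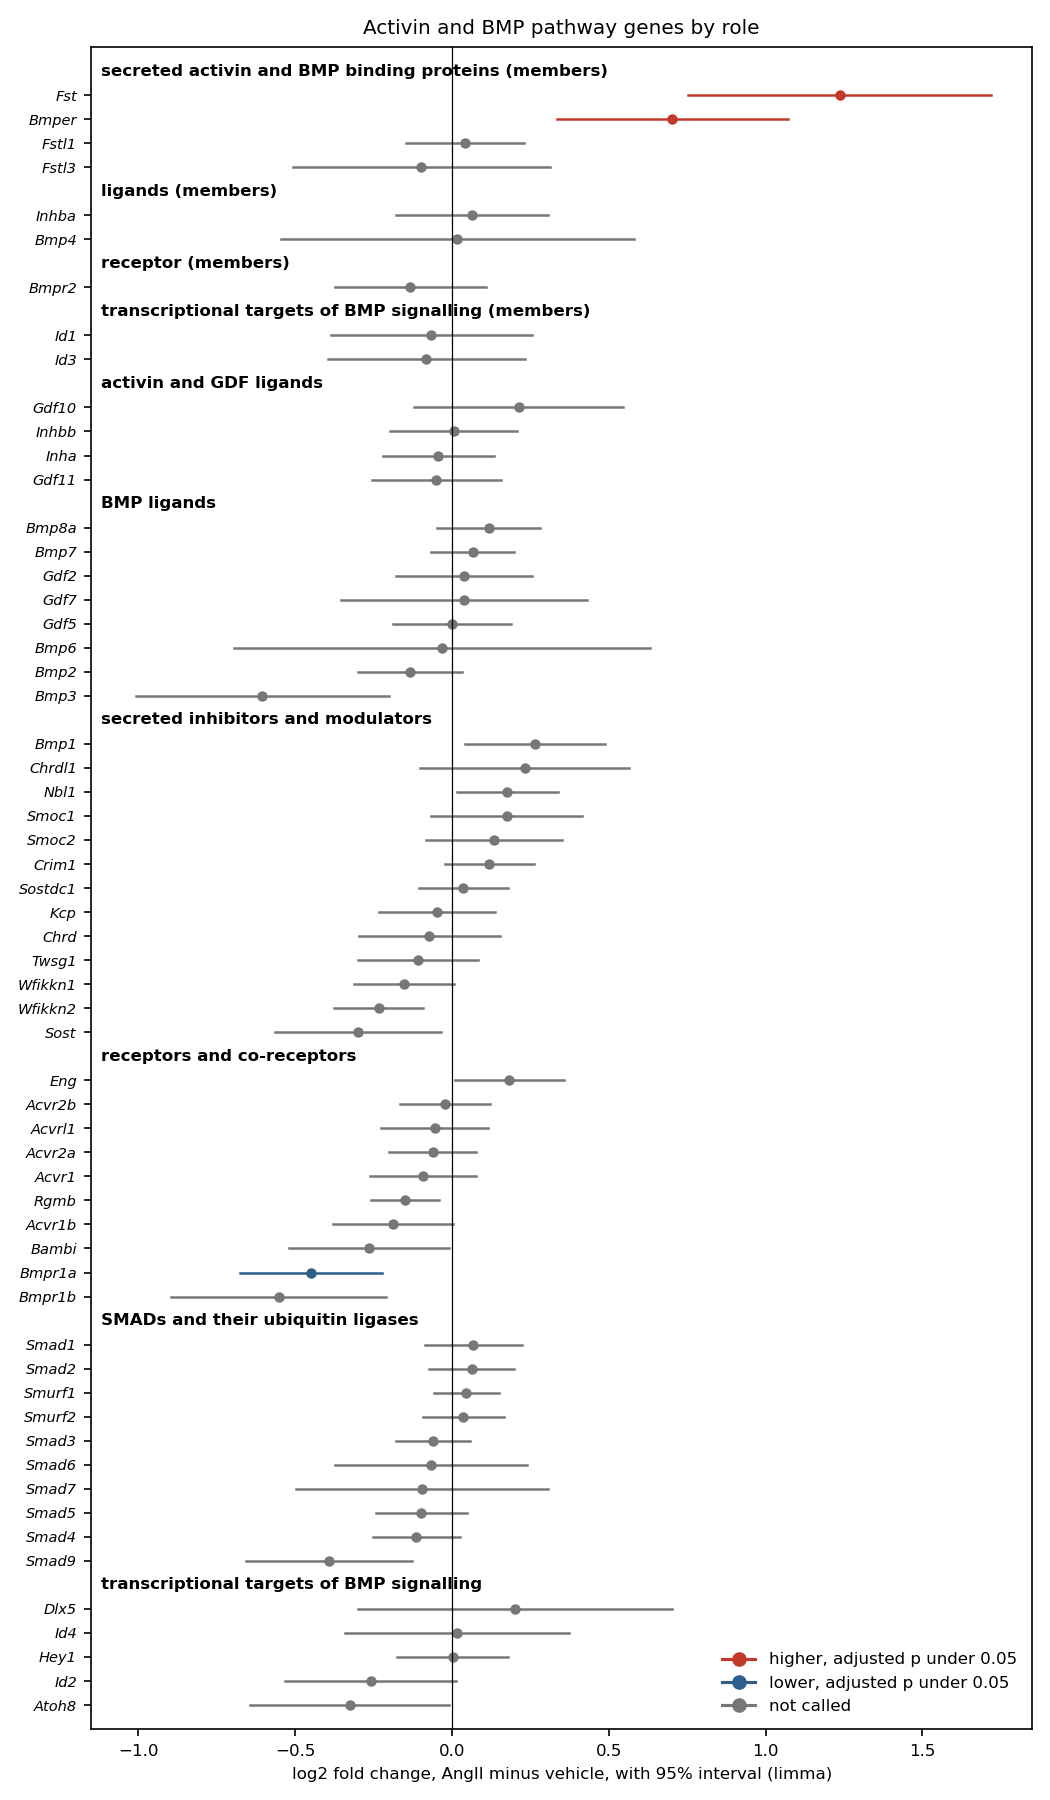
Log2 fold change of AngII minus vehicle with its 95% interval from limma (horizontal axis) for the 9 measured genes and the 50 other measured pathway genes, grouped by role. Fst and Bmper (red) are higher and Bmpr1a (blue) is lower at an adjusted p under 0.05, and the genes in grey were not called.

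It was next asked whether pairs such as ligand and inhibitor, receptor and target, or the targets Id1 and Id3 varied together across mice. Group means were subtracted, and 8 relations were tested over the 15 arrays by permutation, two-sided. Over all arrays Id1 and Id3 varied together, with Pearson's r = 0.802 (permutation p = 0.00044, adjusted p = 0.00352) and Spearman's rho = 0.721 (permutation p = 0.00309, adjusted p = 0.023). In the 10 arrays of series B r was 0.762 (permutation p = 0.0128) and rho was 0.806 (permutation p = 0.00723). In the 5 arrays of series A, too few for a test, r ran the other way, at -0.798. Without vehicle 2 and vehicle 4, which were farthest from the median of Id1, r was 0.751.
Bmper and Bmp4 varied in opposite directions. Pearson's r was -0.603 (permutation p = 0.0164) and did not pass adjustment (adjusted p = 0.0656), whereas Spearman's rho was -0.668 (permutation p = 0.00839, adjusted p = 0.023). In series B r was -0.721 (permutation p = 0.0135) and rho was -0.612 (permutation p = 0.0668). Without AngII 1 and AngII 6, the arrays farthest from the median of Bmp4, r was -0.665. AngII 6 had the highest Bmp4 signal and a Bmper signal within the vehicle range, while AngII 5 and AngII 8 had high Bmper and low Bmp4.
Bmp4 and Id1 were related by rank only (rho = 0.664, permutation p = 0.00864, adjusted p = 0.023; r = 0.417, permutation p = 0.123, adjusted p = 0.246), and in series B neither value passed the test (r = 0.187, permutation p = 0.62; rho = 0.333, permutation p = 0.348). Without AngII 1 and AngII 6 r was 0.607. The relations of Inhba with Fst (r = -0.328) and with Fstl3 (r = 0.253), of Fst with Fstl3 (r = 0.321) and of Bmpr2 with Id1 (r = 0.31) and Id3 (r = 0.46) did not pass the test (adjusted permutation p from 0.225 to 0.365 for r). In series B alone Inhba and Fst had r = -0.633 (permutation p = 0.047), against 0.488 in the 5 arrays of series A, and r was -0.07 over all arrays without AngII 5 and vehicle 5. The direction of Fst with Fstl3 also turned in series B, at r = -0.609 (permutation p = 0.059) and rho = -0.648 (permutation p = 0.0479), none of these adjusted.

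**Figure D3:**
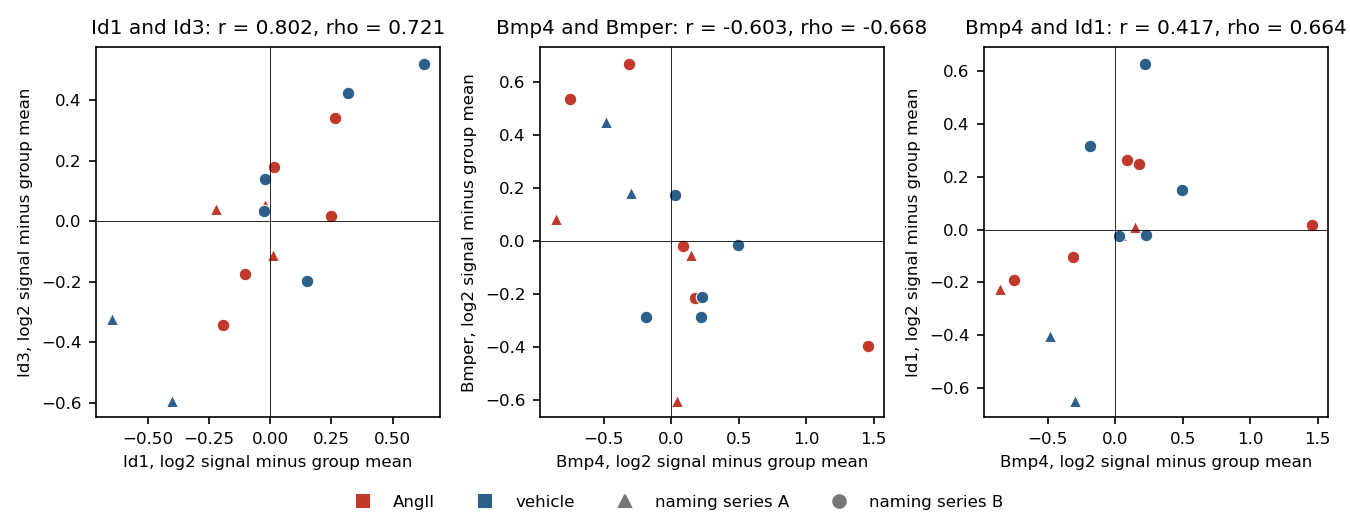
Log2 signal minus the group mean for Id3 against Id1, Bmper against Bmp4 and Id1 against Bmp4, 1 point per array, with AngII arrays in red and vehicle arrays in blue. Triangles are naming series A and circles series B. Over all arrays Id1 and Id3 rise together (r = 0.802), Bmper falls as Bmp4 rises (r = -0.603), and in the third panel AngII 6 lies far to the right.

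As a description, the probe sets whose variation over the 15 arrays was most like that of Fst, after subtraction of group means, were Med9 (r = 0.901), Sec16b (r = 0.90) and Alg1 (r = 0.882). For Bmper they were Cyth4 (r = 0.894), Robo4 (r = 0.893), which encodes an endothelial receptor, and Mrps12 (r = 0.891). Of these 6 only Cyth4 was called, at 0.66 (adjusted p = 0.0185 from limma).

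The robustness of the called genes differed. The log2 fold change of Fst lay between 0.93 and 1.45 over 31 alternative settings and passed the threshold in 27 of them. Bmper lay between 0.14 and 0.94 and passed in 22, and Bmpr1a lay between -0.54 and -0.13 and passed in 21. Of the 31 settings 15 left out a single array each, and these share nearly all arrays with the main fit. No called gene passed with the macrophage, fibroblast or smooth muscle mean as a covariate.

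**Figure D4:**
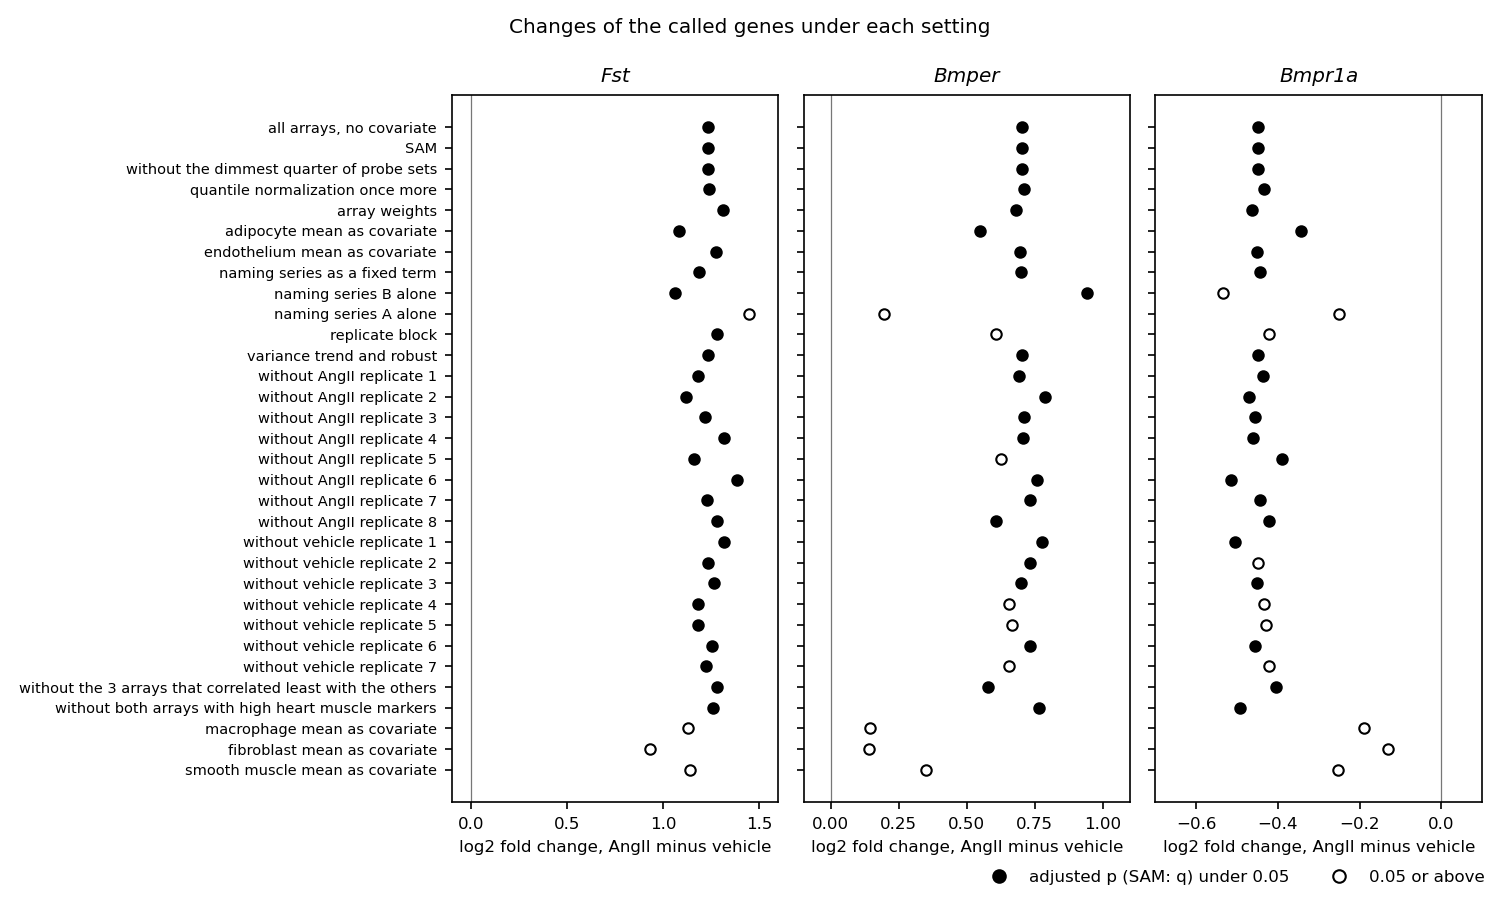
Log2 fold change of AngII minus vehicle (horizontal axes) for Fst, Bmper and Bmpr1a under each setting (rows), filled where the adjusted p, or the q of SAM, was under 0.05. Fst stays between 0.93 and 1.45, while Bmper reaches 0.14 and Bmpr1a -0.13 with the fibroblast mean as a covariate.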

How the data were processed

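RNA from 15 mouse aortae was measured, 1 array per mouse. The authors background-corrected, normalized and summarized the probe sets by RMA in Expression Console and deposited log2 signals for 15095 probe sets. No filter on probe sets was applied here, none is named in the sources used, and the number of arrays limits the precision. The authors tested by SAM in TMEV, and no comparison of theirs was used. The sample labels and the study's methods name different RNA extraction kits.
AngII arrays were compared with vehicle arrays by limma 3.58.1 in R 4.3.3. P-values of the whole table were adjusted by the Benjamini-Hochberg method, and 0.05 was the threshold. Exact and permutation tests used Python 3.11.15 and scipy 1.17.1, with 100000 resamples for relations. The fits were tested on simulated data. Alternatives were SAM with 100 permutations, array weights, quantile normalization, a filter on the dimmest 25% of probe sets, a variance trend, marker means as covariates, the naming series and left-out arrays.
Probe sets were named from the platform annotation. Named were all genes on the list, the called pathway genes, the gene farthest from 0 in each role and the 3 probe sets most like each called gene. Genes named beyond this rule, such as Smad1, Smad5, Wfikkn2 and Rgmb, were chosen after their values were seen. The genes and lists were chosen with earlier results of these data known.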

Additional observations from a re-analysis of the deposited data

Results flagged for a closer look

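Of 20 groups of arrays tested with Dixon's criterion for a single array that stands apart, 2 were flagged, where chance flags about 1 in 20. The Bmp4 signal of AngII 6 was 11.42, far above the next AngII array, and AngII 6 was also the AngII array with the lowest Fst signal, 7.27. In the same array the mean of the endothelial genes, 9.43, was the highest of all 15 arrays, and the mean of the adipocyte genes, 7.81, was the lowest of the AngII arrays. The endothelial gene Kdr went the other way in AngII 6, at 5.98, the lowest of all 15 arrays. The part of these genes in the Bmp4 value was not tested. Without AngII 6 the log2 fold change of Bmp4 was -0.19 and that of Fst 1.39. The Bmpr1a signal of vehicle 1 was 9.35, below the other vehicle arrays. Vehicle 1 was 1 of the 2 arrays with high heart muscle markers, and without it Bmpr1a changed by -0.51 (adjusted p = 0.0122 from limma).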

How the results depend on the processing

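No log2 fold change of a called gene changed sign under any alternative. The 805 called probe sets became 1828 with SAM, 1272 with array weights, 442 with the adipocyte mean as a covariate, 8 in naming series A alone, 373 in series B alone, 531 without AngII 5, AngII 8 and vehicle 1, and 344 to 1198 with single arrays left out (488 without AngII 5, 531 without AngII 7, 406 without vehicle 2, 477 without vehicle 4, 344 without vehicle 5 and 477 without vehicle 7). They became 1 with the macrophage or the fibroblast mean as a covariate and 88 with the smooth muscle mean. Of the 9 genes, 2 were called higher, but 0 in series A alone and 0 with the macrophage, fibroblast or smooth muscle mean as a covariate, and 1 to 2 with single arrays left out. Of the other pathway genes, 1 was called lower, but 6 with SAM, 5 with array weights, 2 after quantile normalization, 0 in series A alone, 0 with each of the 3 means as a covariate, and 0 to 5 with single arrays left out, namely 4 without AngII 2, 5 without AngII 6, 3 without vehicle 1 and 0 without vehicle 2, 4, 5 or 7. Of the genes that were not called, Id1 and Id3 were above 0 in 6 of 31 alternatives each and Bmp4 in 22. With the smooth muscle mean 1 was called higher, Smoc1 (0.42, adjusted p = 0.0316 from limma). The causes of these changes in the counts were not tested, and each series holds fewer arrays than the whole. Whether the replicate numbers pair the samples was not settled, since correlations over all probe sets cannot show how the mice were handled. Over 7 pairs r between same-numbered arrays ran from -0.456 to 0.416, with 4 above 0.1. Of 7 vehicle arrays 1 correlated best with its own number. AngII 1 and vehicle 1, the arrays with high heart muscle markers, share a number. With a replicate block 191 probe sets were called, with 1 of the 9 genes higher and 0 other pathway genes lower, and Fst kept its call while Bmper changed by 0.61 (adjusted p = 0.108 from limma).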
